A study of Rattus norvegicus with 30 samples.

Results

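The genes described here are 35 genes of neural progenitors and of the cell cycle, measured by RNA-Seq in rat cortical neuron cultures after transduction with AAV9. They were chosen by symbol, without use of their measured values in the rule, from the 32883 genes of the table. They comprise 7 markers and regulators of neural progenitors, the 3 Id genes Id1, Id2 and Id3, 5 cyclins and CDKs of G1 and S phase, 9 genes of DNA replication and 11 genes of G2 phase and mitosis. All 35 were in the table and 33 passed the filter on low values (10 or more normalized counts in 5 or more libraries), while Eomes and Neurog2 did not.

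Cultures received AAV9 that encoded human αSyn 3K (3K) or AAV9 made from the vector without an insert (EV), in both cases on day 5 in vitro, and RNA was collected 6, 12 and 19 d later. Each treatment and day had 5 libraries, 30 in all. αSyn 3K carries 3 glutamate to lysine substitutions and was driven by the CAG promoter, which is active in most cell types, so that expression was not limited to neurons by its promoter. The cultures were prepared from the cortex of Sprague Dawley rat embryos, and the sample titles mark every library, 3K and EV, as PBS. The labels number the libraries from 1 to 5 but do not say whether these were separate cultures, so the p-values measure the spread between libraries, which may be technical.

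In the developing cortex, radial glia and intermediate progenitors divide in the ventricular and subventricular zones and express Nes, Pax6, Sox2 and Eomes, with Hes1 as the main effector of Notch signalling that keeps them from differentiating into neurons. Id proteins bind E proteins and keep proneural factors such as Neurog2 from acting, and BMP signalling is a classical inducer of Id1 and Id3. Entry into the cell cycle runs through D-type cyclins with Cdk4, then through E-type cyclins with Cdk2, which release E2F factors to switch on the replication genes. Genes of G2 phase and mitosis are switched on later, by MuvB complexes that recognize a short element near the start site. Neurons have left the cycle, so in cortical cultures transcripts of replication and mitosis genes come as a rule from dividing glia and progenitors. This does not extend to all members, as Id2 is also found in postmitotic neurons and Sox2 in astrocytes.

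The short elements named above were searched for in the promoters of the members, to show which letters the members share. Sequences were those of RefSeq (build GRCr8, 250 bases before to 50 after the start of each gene), and 29 of the 35 members were matched by symbol. Ccna2, Ccnd1, Ccnd2, Aurkb, Mcm4 and Rrm2 were not. Both strands were searched for an E2F element (TTTCGCGC or TTTGGCGC), for the cell cycle gene homology region, CHR (TTTGAA), for a CCAAT box (CCAAT) and for an RBPJ core (TGGGAA). The E2F letters stood in 6 of the 7 replication members matched (Mcm2, Mcm3, Mcm5, Mcm6, Mcm7 and Tyms) and in Cdk1, against 0.792% of all 33469 promoters of this length. The E2F windows of 4 replication members are shown, written 5′ to 3′ on the strand of the gene, with the element in capitals.
Mcm2 (chr4:122918095-122918154, minus strand): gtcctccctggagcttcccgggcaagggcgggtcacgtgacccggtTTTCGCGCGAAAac
Mcm6 (chr13:42404443-42404502, minus strand): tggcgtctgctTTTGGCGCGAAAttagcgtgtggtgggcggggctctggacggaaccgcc
Mcm7 (chr12:22163179-22163238, minus strand): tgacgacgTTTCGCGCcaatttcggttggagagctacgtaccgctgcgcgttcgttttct
Tyms (chr9:120776084-120776143, minus strand): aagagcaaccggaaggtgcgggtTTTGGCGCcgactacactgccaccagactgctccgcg
In Mcm2 and Mcm6 the element was found on both strands in overlapping letters, and in Mcm7 its last letter is the first of a CCAAT box.

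The CHR letters stood in 7 of the 9 matched members of G2 and mitosis (Mki67, Top2a, Cdk1, Cenpf, Nusap1, Prc1 and Birc5), against 18.3% of all promoters. A CCAAT box stood in 8 of these 9, against 37.5% of all promoters. It also stood in 5 of the 7 replication members matched and in 19 of the 29 members in all. The last 60 bases before the start of 4 G2 and mitosis members are shown, with CHR and CCAAT letters of either strand in capitals.
Top2a (chr10:84473094-84473153, minus strand): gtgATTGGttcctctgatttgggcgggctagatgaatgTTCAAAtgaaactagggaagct
Cdk1 (chr20:19265233-19265292, plus strand): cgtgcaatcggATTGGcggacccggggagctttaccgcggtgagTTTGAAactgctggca
Prc1 (chr1:143659421-143659480, plus strand): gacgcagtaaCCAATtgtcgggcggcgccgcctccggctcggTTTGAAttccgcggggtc
Birc5 (chr10:103572086-103572145, plus strand): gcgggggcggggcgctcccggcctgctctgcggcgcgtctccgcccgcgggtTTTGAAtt
In these 4 genes the CHR lies between the start site and any CCAAT letters shown. CHR letters were found in 12 of the 29 members in all, which outside G2 and mitosis were Pax6, Sox2, Mcm2, Id1 and Id3. Id1 and Id3 are shown in the window from 110 to 51 bases before the start because the treatments differed in these genes, and Id1 also held a CCAAT box there.
Id1 (chr3:161671454-161671513, plus strand): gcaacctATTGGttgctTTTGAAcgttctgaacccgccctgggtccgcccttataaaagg
Id3 (chr5:153656181-153656240, plus strand): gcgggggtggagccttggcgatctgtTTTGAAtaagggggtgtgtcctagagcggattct
Of the progenitor genes, Hes1 and Pax6 held the RBPJ core. Hes1 held it at 2 places, shown in capitals in the window from 140 to 81 bases before the start. The core stood in 9 of the 29 members, 4 of the 7 matched replication members among them, and in 25.7% of all promoters.
Hes1 (chr11:84213126-84213185, minus strand): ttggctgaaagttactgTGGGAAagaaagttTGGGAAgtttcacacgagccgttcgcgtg
These matches describe letters only, and the libraries measured no binding.

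Each library held between 4747019 and 7035869 reads in genes. Levels are given as normalized counts, which are reads of a gene divided by the size factor of the library. The αSyn 3K vector ranged from 22901 to 28883 in 3K libraries at day 19 and from 172 to 249.8 in EV libraries. Neuron and astrocyte markers were abundant in every library, whereas 8 of 13 microglial markers had 3 reads or fewer in all 30 libraries together and Cx3cr1 and C1qa were at or near 0. Of 12 vascular and fibroblast markers matched, 3 passed the filter on low values. All 3 were higher at day 19 than at day 6 in both treatments (32.2% of all genes in 3K and 32.9% in EV). The 12 summed to 69.8 to 124, 139 to 166 and 242 to 398 at days 6, 12 and 19 in 3K and to 89.5 to 125, 113 to 182 and 259 to 308 in EV, with the endothelial marker Cldn5 at 0 throughout, and their part in the changes of the members was not tested. Over the 12911 genes tested, limma called 488 genes with a higher and 527 with a lower level in 3K cultures at day 19, or 631 and 376 after rescaling libraries to equal totals.

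Between days most members changed, and those called in both treatments changed in the same direction. Differences were fitted with limma on log2(normalized count + 1), a scale that understates changes of genes with few reads, with Benjamini-Hochberg adjustment across the 12911 genes and a threshold of 0.05. In 3K, 5 of 33 members were higher and 25 lower at day 19 than at day 6, where 32.2% of all genes were called higher and 31.3% lower. In EV, 6 were higher and 24 lower, with 32.9% and 32.2% of all genes. The median log2 change of the members was -0.78 in 3K and -0.77 in EV, against 0.00 over all genes in each. Of the members called, 24 were lower and 5 higher in both treatments, and none was called in opposite directions. These are RNA levels of whole cultures, in which fewer cells of a type and less RNA per cell cannot be told apart. The 13 astrocyte markers summed to 13809 to 15501 at day 6, 25479 to 26655 at day 12 and 50806 to 57373 at day 19 in 3K. In EV they summed to 15088 to 17018, 27911 to 29374 and 57187 to 59879. The part of this shift in the changes of the members was not tested.

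Most of the fall lay after day 12. At day 12 against day 6, 11 members were higher and 5 lower in 3K (22.3% and 20.1% of all genes), and 10 were higher and 8 lower in EV (23.3% and 21.2%). At day 19 against day 12, 3 were higher and 27 lower in 3K (23.3% and 22.5%), and 3 were higher and 24 lower in EV (23.6% and 21.7%). The 3 that were higher were Hes1, Sox2 and Ccnd2 in each treatment. The comparisons with day 12 and with day 6 share the day 19 libraries. Likewise, the steps before and after day 12 share the day 12 libraries. Markers of the oligodendrocyte lineage were also lower at day 19 than at day 12, 12 of 12 in 3K (median -1.12) and 10 of 12 in EV (median -1.25). Their part in the changes of the members was not tested.

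**Figure D1:**
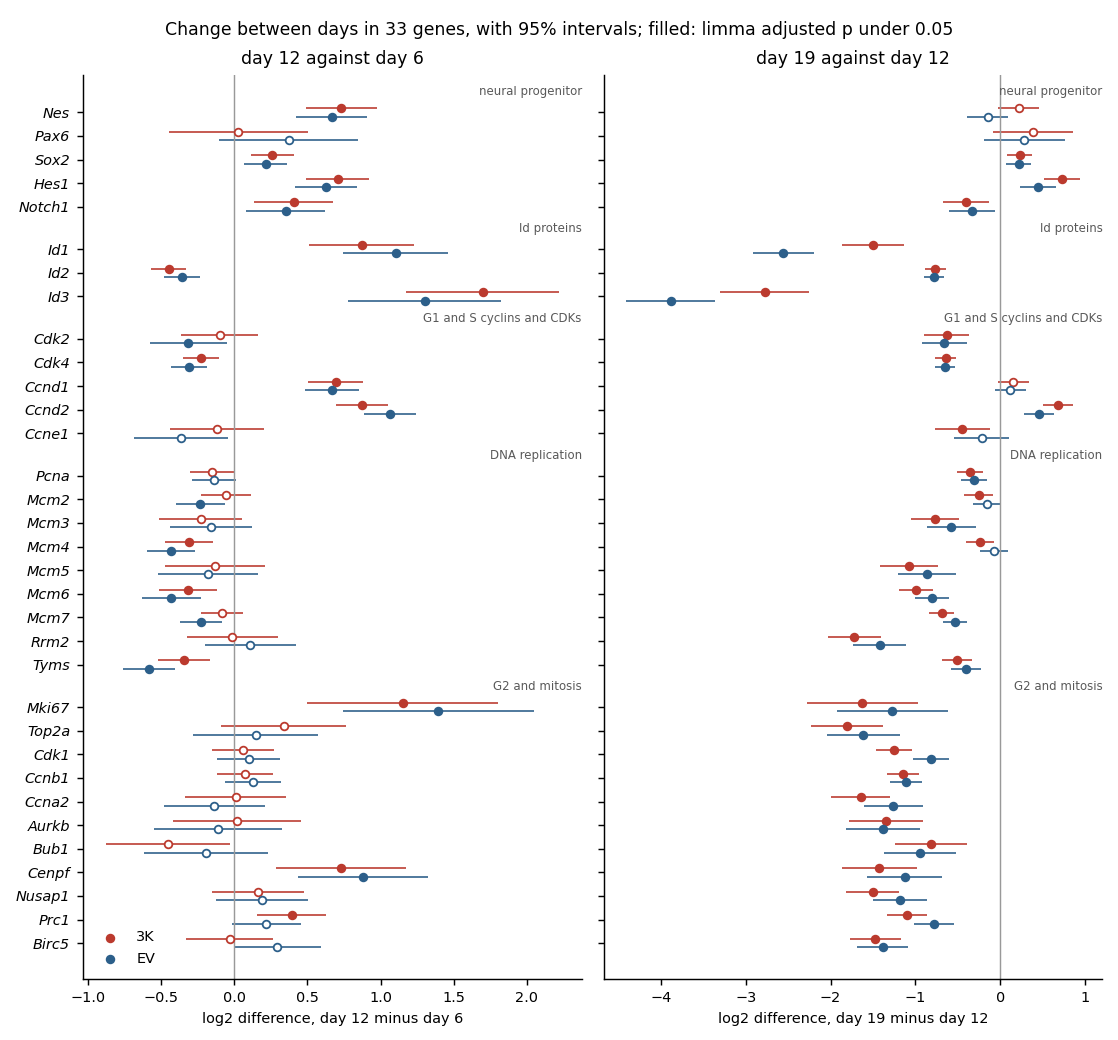
Log2 differences between consecutive days for the 33 members tested, grouped by role, with 3K (red) drawn above EV (blue). Lines are 95% intervals and filled points have a limma adjusted p under 0.05. At day 19 against day 12 all 11 genes of G2 and mitosis lie below 0 in both treatments, while Hes1, Sox2 and Ccnd2 lie above 0.

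Few members differed between treatments. In 3K against EV, 1 of 33 was called at day 6 (Id2, higher, with 0.139% of all genes called higher), none at day 12 (0.434% of all genes called in either direction) and 5 at day 19, where Id1, Id2, Id3 and Nes were higher and Cdk1 was lower (3.78% of all genes called higher and 4.08% lower). At day 12, 2 members had an unadjusted p under 0.05, Id2 and Mcm4, and neither edgeR nor DESeq2 called any. The median difference over the members at day 19 was -0.04, against -0.00 over all genes. The count at day 19 fell to 3 without EV library 1 or 5 or without 3K library 2 or 3, and to 2, Id1 and Id3, without both libraries numbered 2. All 3 comparisons of treatments at a day use separate libraries.

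**Figure D2:**
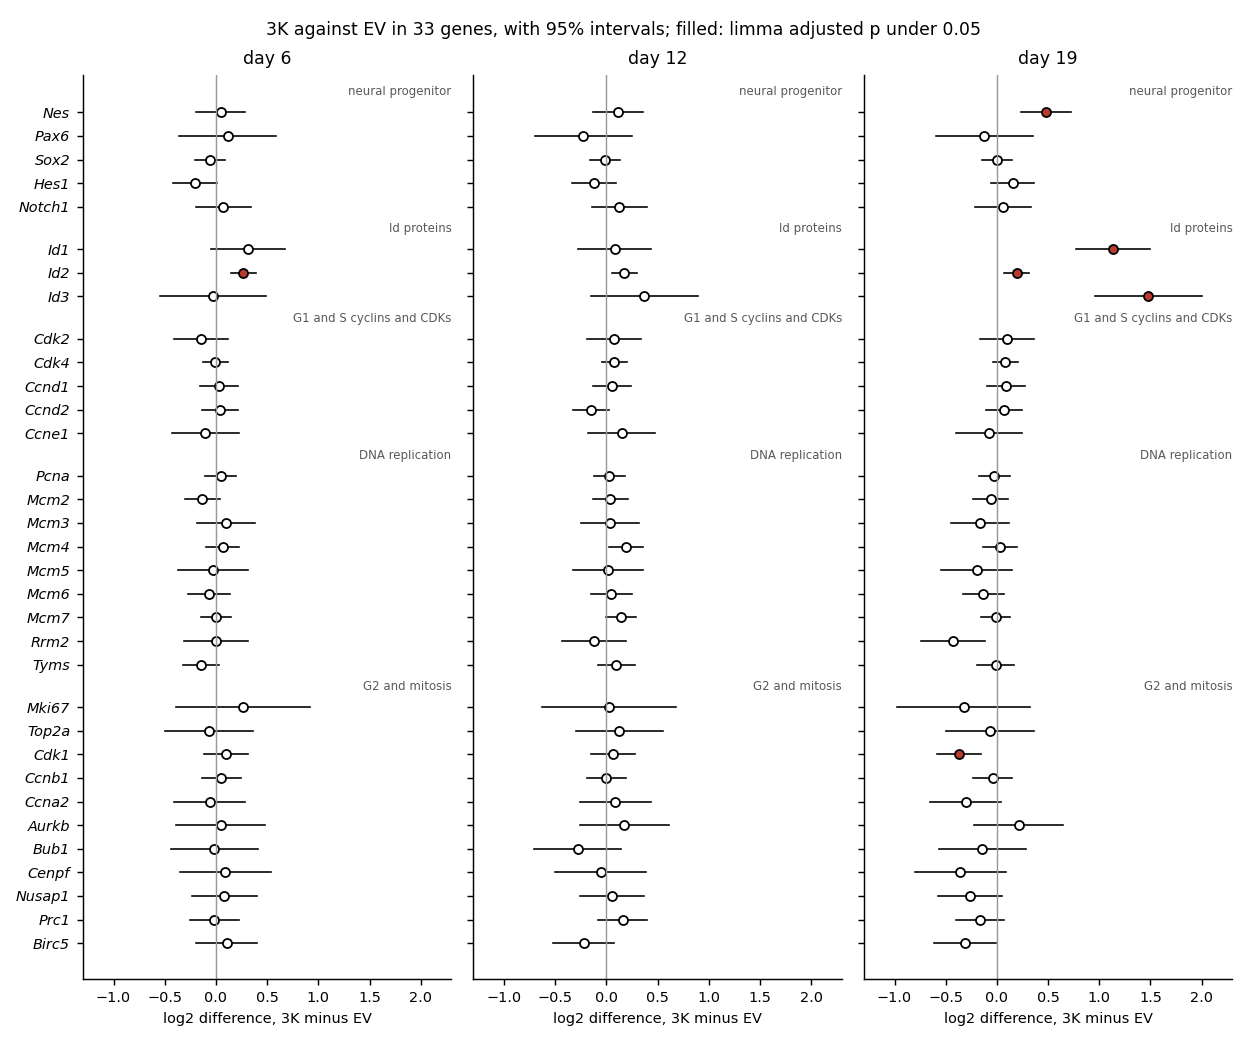
Log2 difference between 3K and EV in each of the 33 members tested at days 6, 12 and 19, with 95% intervals. Filled points have a limma adjusted p under 0.05. Id1 and Id3 stand apart at day 19 with differences of 1.14 and 1.48, and most other intervals include 0.

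Among the progenitor genes, Hes1, the Notch effector, was higher at each later day in both treatments. Hes1 in 3K was 45.1, 63.8, 53.0, 50.5 and 61.0 at day 6, 88.1, 86.5, 101, 81.5 and 89.9 at day 12, and 149, 141, 174, 152 and 126 at day 19. In EV it was 60.0, 60.1, 54.0, 72.4 and 68.1 at day 6, 94.6, 89.6, 95.4, 116 and 91.8 at day 12, and 132, 126, 154, 135 and 119 at day 19. No library of a later day overlapped an earlier one in either treatment, and the treatments overlapped at each day. The log2 change at day 19 against day 6 was 1.43 ± 0.10 (SE) in 3K and 1.07 ± 0.10 in EV (limma adjusted p = 1.8e-13 and 1.3e-10). The 3K effect on it, taken as the 3K to EV difference at day 19 less that at day 6, was 0.36 (adjusted p = 0.28).

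Sox2, a transcription factor of stem cells and astrocytes, followed with smaller steps. Sox2 in 3K was 340.4, 289.9, 379.6, 322 and 378 at day 6, 426, 403, 401, 397 and 409 at day 12, and 492, 463, 530.4, 440.2 and 469 at day 19. EV cultures had 384, 397, 324, 385 and 293 at day 6, 392, 419, 417, 415 and 411 at day 12, and 439, 479.9, 471, 507 and 493 at day 19. In both treatments every day 19 library lay above every day 12 library. The change at day 19 against day 6 was 0.49 ± 0.07 in 3K and 0.43 ± 0.07 in EV (limma adjusted p = 5.6e-07 and 4.4e-06). The EV step at day 12 against day 6 (0.21) lost its call without EV day 6 library 3 or 5 (adjusted p = 0.052 and 0.088).

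Nes encodes nestin, an intermediate filament of progenitors and reactive astrocytes, and was the only progenitor gene called between treatments. At day 19 Nes was 666, 666, 601, 477 and 734 in 3K, against 438, 424, 359, 437 and 613 in EV. The EV library at 613 lay above 2 of the 5 in 3K, and the other 4 lay below all 5. The difference was 0.48 ± 0.12 (limma adjusted p = 0.0089), a fold of 1.39 on the fitted scale. It stayed between 0.40 and 0.59 with any 1 library left out and kept its call, but with both libraries numbered 2 left out it was 0.43 with an adjusted p of 0.059. At day 6 the means were 323 ± 23.9 (SD, n = 5) in 3K and 318 ± 64.8 in EV, and at day 12 they were 536 ± 15.4 and 497 ± 39.1. The 3K effect on Nes at day 19 against day 6 was 0.43 (adjusted p = 0.23). Over days, Nes was higher at day 19 than at day 6 by 0.95 in 3K and by 0.52 in EV (limma adjusted p = 2.7e-08 and 0.00033), and its step at day 12 against day 6 was 0.73 in 3K and 0.67 in EV.

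Notch1, the receptor, was highest at day 12, with means of 347 ± 58.9, 456 ± 34.8 and 352 ± 79.2 (SD, n = 5) at days 6, 12 and 19 in 3K and 332 ± 66.2, 417 ± 24.1 and 332 ± 35.3 in EV. The step up to day 12 was 0.40 in 3K and 0.35 in EV, and the step down to day 19 was -0.40 and -0.33 (limma adjusted p = 0.014, 0.031, 0.014 and 0.041). These calls were lost without single libraries, and both steps of a treatment share its day 12 libraries. The step up was lost without 3K day 6 library 2 in 3K, and without EV day 6 library 2 or 5 or EV day 12 library 1, 2 or 5 in EV. The step down was lost without 3K day 19 library 2 or 4 in 3K, and without EV day 12 library 1, 2, 3 or 5 or EV day 19 library 2, 3 or 4 in EV (limma adjusted p from 0.053 to 0.16 over all of these).

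Pax6, a radial glial transcription factor, was low, between 7.67 and 40.3 in all libraries. At day 19 against day 6 it was higher by 0.65 in EV (limma adjusted p = 0.015), where the call was lost without EV day 6 library 5 (0.35, adjusted p = 0.10), and it differed by 0.42 in 3K (adjusted p = 0.12). The difference between these changes was -0.24 (adjusted p = 0.84). Eomes, the marker of intermediate progenitors, lay between 0 and 4.48. Neurog2, a proneural factor, was 2.84, 6.00, 7.33, 2.95 and 2.07 in 3K at day 19, against 0.984, 1.82, 1.08, 2.88 and 1.03 in EV, and between 0 and 2.08 in the other libraries. Neither was tested.

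**Figure D3:**
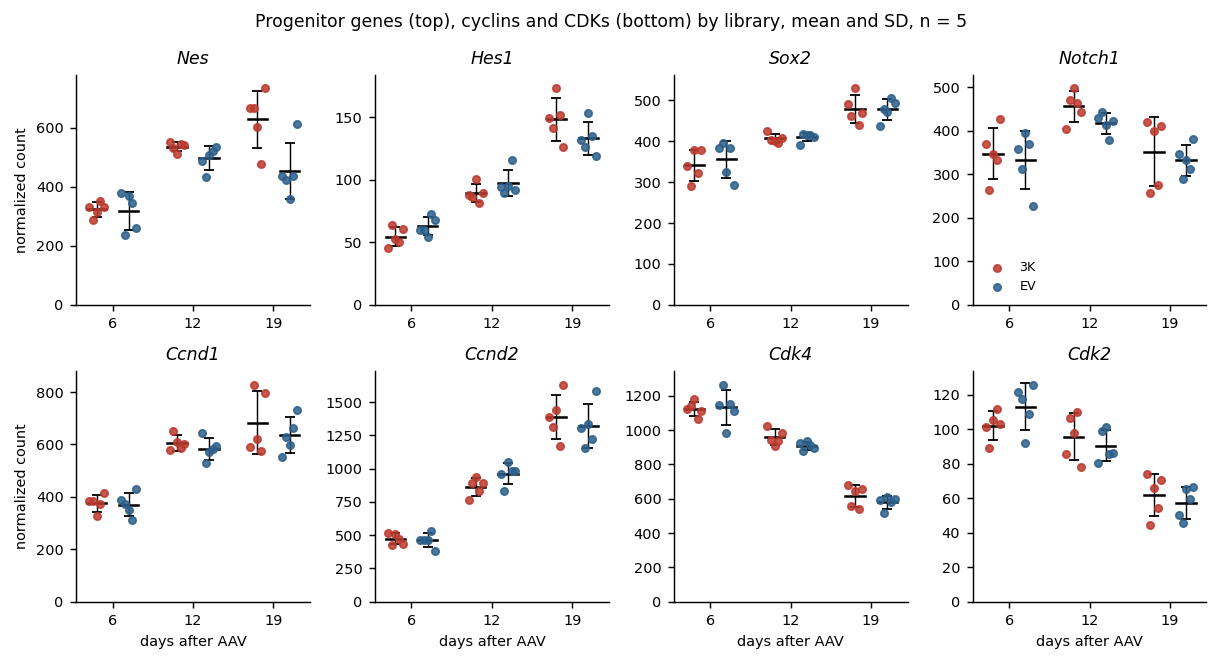
Normalized counts by library against days after AAV for 4 progenitor genes (top) and 4 cyclins and CDKs (bottom), with 3K (red) left of EV (blue) at each day. Bars give the mean and SD of 5 libraries. Hes1 and Ccnd2 are higher at each later day, Cdk4 is lower at each later day, and Nes in 3K averages 629 at day 19 against 454 in EV.

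Id1 and Id3 gave the largest differences between treatments among the members tested at day 19. Id1 at day 19 was 49.2, 46.3, 36.7, 31.4 and 40.4 in 3K, against 23.6, 10.0, 18.4, 14.4 and 27.9 in EV. These EV libraries held only 11 to 27 reads of Id1. Every 3K library lay above every EV library, which no other member showed in that direction and which held for 3.10% of all genes tested. The log2 difference was 1.14 ± 0.18 (SE, limma adjusted p = 5.1e-05), a fold of 2.20. It lay between 0.94 and 1.29 with any 1 library left out and was 0.89 (adjusted p = 0.00089) without both libraries numbered 2. Over all alternatives its adjusted p was between 4.7e-06 and 0.013.

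Id3 at day 19 was 91.7, 32.6, 68.4, 50.1 and 69.4 in 3K, against 26.6, 11.8, 30.3, 10.6 and 35.1 in EV. These EV libraries held only 11 to 34 reads of Id3. The lowest 3K library, number 2, lay below the highest EV library, number 5, and the other libraries did not overlap. The difference was 1.48 ± 0.26 (limma adjusted p = 0.00021), a fold of 2.79. With any 1 library left out it was between 1.25 and 1.69, and its adjusted p was at most 0.017 over all alternatives.

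Both genes had passed through a maximum at day 12 in both treatments, and the steps to and from it share the day 12 libraries. Id1 in 3K was 62.3, 58.5, 68.6, 64.5 and 61.0 at day 6 and 109, 101, 145, 124 and 106 at day 12, and in EV it was 60.0, 46.2, 48.6, 47.4 and 50.8 at day 6 and 106, 95.7, 111, 96.4 and 146 at day 12. Id3 in 3K was 121, 174, 121, 109.6 and 113 at day 6 and 402, 374, 426, 466 and 388 at day 12, and in EV it was 148, 83.7, 128, 131 and 166 at day 6 and 266, 305, 318, 269.6 and 462 at day 12. At both days the treatments overlapped in each gene. From day 12 to day 19 Id1 changed by -1.50 in 3K and by -2.56 in EV, and Id3 by -2.78 in 3K and by -3.89 in EV (limma adjusted p at most 2.2e-08 in each).

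The 3K effect at day 19 was then compared with that at the earlier days, in comparisons that share the day 19 libraries. For Id1 it was larger at day 19 than at day 12 by 1.06 ± 0.25 (limma adjusted p = 0.044), and 1 of 33 members was called in this comparison, in which 0.542% of all genes were. The Id1 call was lost in 15 of 20 fits with 1 library left out (1.06 became 0.86 to 1.10, adjusted p from 0.053 to 0.097), and held without EV day 12 library 2, EV day 19 library 1 or 5, 3K day 12 library 3 or 3K day 19 library 4. For Id3 the effect was larger at day 19 than at day 6 by 1.51 ± 0.36 (adjusted p = 0.024), again 1 of 33 members, with 1.51% of all genes called, 95 higher and 100 lower, or 123 higher and 72 lower after rescaling to equal totals. The Id3 call was lost without EV day 6 library 5, EV day 19 library 2 or 4, or 3K day 19 library 1 (1.28 to 1.41, adjusted p from 0.050 to 0.059). It was also lost with only the groups compared (limma adjusted p = 0.093). Id3 at day 19 against day 12 gave 1.11 (adjusted p = 0.21) and Id1 at day 19 against day 6 gave 0.82 (adjusted p = 0.098). At day 12 against day 6 no member was called, none at an unadjusted p under 0.05 and none with edgeR or DESeq2, and 0% of all genes were called.

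Id2, which is also found in postmitotic neurons, fell at each step in both treatments. Id2 in 3K was 668, 603, 672, 578 and 567 at day 6, 480.3, 425, 425, 459 and 468 at day 12, and 253, 273, 274, 274 and 251 at day 19. In EV it was 496, 585, 472, 512 and 502 at day 6, 396, 406, 427, 394 and 374 at day 12, and 214, 233, 236, 251 and 225 at day 19. The treatments overlapped at each day by 1 EV library, and 4 of 5 EV libraries lay below all 3K libraries at days 6, 12 and 19. Id2 changed by -1.21 ± 0.06 in 3K and by -1.14 ± 0.06 in EV between days 6 and 19 (limma adjusted p = 6.2e-18 and 2.7e-17).

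The differences of Id2 between treatments were small and close to the threshold. They were 0.27 ± 0.06 at day 6, 0.18 at day 12 and 0.19 at day 19 (limma adjusted p = 0.044, 0.27 and 0.039), with folds of 1.13 at day 12 and 1.14 at day 19. At day 6 the call was lost without EV library 1, 3, 4 or 5 or 3K library 1, 2 or 3 (adjusted p from 0.066 to 0.18), and at day 19 without EV library 1, 2, 3 or 5 or 3K library 2, 3 or 4 (0.051 to 0.11). With edgeR and DESeq2 the adjusted p at day 19 was 0.058 and 0.096. Limma with only the groups compared gave 0.34 at day 6 and 0.097 at day 19.

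**Figure D4:**
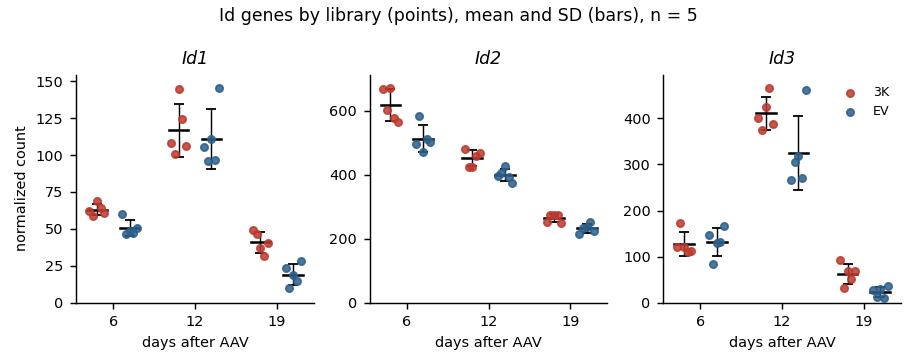
Normalized counts of Id1, Id2 and Id3 by library against days after AAV, with 3K (red) left of EV (blue). Bars give the mean and SD of 5 libraries. Id1 and Id3 peak at day 12 and then drop, to 40.8 and 62.4 on average in 3K at day 19 against 18.9 and 22.9 in EV, while Id2 falls at each step.

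Other genes of the BMP pathway and its targets were counted beside the Id genes. Of 14 tested, 1 was higher and none lower in 3K at day 19 (3.78% and 4.08% of all genes). This was Bmp2, a BMP ligand, at 33.1 to 41.4 in 3K against 15.7 to 27.3 in EV (0.84, limma adjusted p = 0.0034), with no overlap. Its 3K effect at day 19 exceeded that at day 6 by 0.99 (adjusted p = 0.049). Id4, the remaining Id gene, was higher at day 19 than at day 6 in both treatments, by 1.04 in 3K and 0.81 in EV (adjusted p = 1.3e-13 and 3.9e-11). Id4 was not called between treatments.

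The median 3K to EV difference of these 14 genes at day 19 was 0.08. Of 17 other Notch pathway genes tested, none was higher and 2 were lower in 3K at day 19, Notch3 (-0.34, limma adjusted p = 0.035) and Hes5 (-0.79, adjusted p = 0.038). Of 13 other progenitor and radial glial genes, 3 were higher and 1 lower (3.78% and 4.08% of all genes). Vim, the intermediate filament vimentin, was 629.8, 696, 701, 396 and 693 in 3K at day 19, against 372, 304, 367, 356 and 408 in EV. The 3K library at 396 lay below 1 EV library and the other 4 lay above all. The difference was 0.76 (adjusted p = 2.3e-05), and it exceeded that at day 6 by 0.93 and that at day 12 by 0.68 (adjusted p = 0.00075 and 0.038). Fabp7, a radial glial fatty acid binding protein, was higher by 0.29 and Lhx2, a cortical transcription factor, was lower, at -0.29 (adjusted p = 0.037 and 0.0011). Prom1 was also called higher, at 2.57 to 11.4 in 3K and 0 to 4.54 in EV.

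Of the 5 G1 and S phase genes, 2 were higher and 3 lower at day 19 than at day 6 in each treatment. Of all genes, 32.2% were called higher and 31.3% lower in 3K, and 32.9% and 32.2% in EV. Ccnd2, a D-type cyclin, was higher at each later day. Ccnd2 in 3K was 516, 429, 509.6, 467 and 435 at day 6, 764, 892, 935, 829.9 and 893 at day 12, and 1387, 1308, 1439.6, 1173 and 1629.7 at day 19. EV cultures had 460.2, 465, 463, 529 and 381 at day 6, 961, 831, 1049.8, 980.1 and 982 at day 12, and 1303, 1151, 1338, 1225 and 1585 at day 19. No library of a later day overlapped an earlier one. At day 19 against day 6 the change was 1.55 ± 0.09 in 3K and 1.52 ± 0.09 in EV (limma adjusted p = 1.8e-16 and 2.8e-16). Ccnd1 was higher too, by 0.85 in 3K and 0.78 in EV (adjusted p = 1.3e-09 and 5.8e-09), with steps of 0.69 in 3K and 0.67 in EV at day 12 against day 6 and of 0.16 and 0.12 at day 19 against day 12, which were not called (adjusted p = 0.17 and 0.30).

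Cdk4, the kinase that D-type cyclins activate, moved the other way. Cdk4 in 3K was 1125, 1141, 1182, 1067 and 1111 at day 6, 1025, 943, 908, 936 and 983 at day 12, and 678, 559, 648, 537 and 655 at day 19. In EV it was 1147, 1265, 986, 1152 and 1114 at day 6, 924, 877, 936, 915 and 898 at day 12, and 595, 514, 612, 578 and 599 at day 19. Each later day lay below the earlier one with no overlap in either treatment. The change at day 19 against day 6 was -0.87 ± 0.06 in 3K and -0.96 ± 0.06 in EV (limma adjusted p = 3.7e-14 and 2.9e-15).

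Cdk2 and Ccne1, partners in S phase entry, were lower at day 19 than at day 6 as well. Cdk2 changed by -0.73 in 3K and -0.98 in EV (limma adjusted p = 9.9e-06 and 7.4e-08) and Ccne1 by -0.56 and -0.58 (adjusted p = 0.0026 and 0.0018). Some calls for shorter steps were lost when 1 library was left out. The fall of Cdk2 at day 12 against day 6 in EV (-0.32, adjusted p = 0.046) was lost without EV day 6 library 1, 2, 4 or 5 or EV day 12 library 1, 4 or 5. The fall of Ccne1 at day 19 against day 12 in 3K was -0.45 (adjusted p = 0.021). Its call was lost without 3K day 12 library 2 or 5 or 3K day 19 library 2. In these fits of Cdk2 and Ccne1 with 1 library left out, the adjusted p lay between 0.057 and 0.11. The Cdk2 call was also lost without a filter, with equal upper quartiles and with the replicate block (limma adjusted p = 0.070, 0.053 and 0.055). None of the 5 genes was called between treatments on any day, and at day 19 their differences ranged from -0.08 to 0.10, with 95% intervals between -0.40 and 0.36.

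CDK inhibitors, which oppose these kinases, were tested for 6 genes. At day 19, 2 were higher and 1 lower in 3K (3.78% and 4.08% of all genes). Cdkn1c, p57, ranged from 42.0 to 187 in 3K and from 26.4 to 75.4 in EV (0.99, limma adjusted p = 0.0083), with 4 of 5 3K libraries above all EV libraries. Cdkn2b, p15, ranged from 22.3 to 32.4 in 3K and from 10.9 to 21.7 in EV (0.74, adjusted p = 0.045), with no overlap, and its 3K effect exceeded that at day 6 by 1.41 (adjusted p = 0.018). Cdkn3, a phosphatase that acts on CDKs and is itself a cycling gene, ranged from 19.9 to 32.4 in 3K and from 30.9 to 46.6 in EV (-0.60, adjusted p = 0.0027). Of 16 E2F and RB family genes and of 17 other cyclins and CDKs, none was called between treatments at day 19, with 1 of each at an unadjusted p under 0.05. At day 19 against day 6, 1 of the 16 was higher and 7 lower in 3K, and 2 were higher and 9 lower in EV. Of the 6 inhibitors, 2 were higher and 4 lower in 3K, and 1 was higher and 4 lower in EV. The shares of all genes called were 32.2% higher and 31.3% lower in 3K, and 32.9% and 32.2% in EV.

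The replication genes fell in both treatments. All 9 were lower at day 19 than at day 6 in each treatment, where 31.3% of all genes were called lower in 3K and 32.2% in EV. Their median log2 change was -0.86 in 3K and -0.77 in EV. In each treatment, 8 of the 9 had every day 19 library below every day 6 library (22.7% of all genes in 3K and 23.3% in EV). Mcm6, a subunit of the replicative helicase, in 3K was 508, 566, 501, 588 and 529 at day 6, 432, 467, 426, 413 and 419 at day 12, and 238, 175, 202, 248 and 229.9 at day 19. EV cultures had 586, 541, 544, 532 and 617 at day 6, 455, 459, 399.7, 447 and 337 at day 12, and 278, 175, 257, 260.4 and 232 at day 19. The 3 days did not overlap in either treatment. The change at day 19 against day 6 was -1.31 ± 0.10 in 3K and -1.24 ± 0.10 in EV (limma adjusted p = 3.8e-13 and 1.2e-12).

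Tyms, thymidylate synthase, fell at both steps in each treatment. Tyms in 3K was 116, 157, 135, 165 and 152 at day 6, 115, 115, 104, 108 and 126 at day 12, and 88.9, 76.3, 79.4, 70.7 and 80.8 at day 19. In EV it was 154, 164, 146, 172 and 162 at day 6, 99.2, 122, 106, 99.6 and 104 at day 12, and 76.7, 76.3, 82.3, 81.7 and 81.6 at day 19. Library 1 of 3K at day 6 lay within the day 12 range, and no other days overlapped. The step at day 12 against day 6 was -0.34 in 3K and -0.59 in EV, and that at day 19 against day 12 was -0.51 and -0.40 (limma adjusted p = 0.0018, 1.6e-06, 1.2e-05 and 0.00029).

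Rrm2, a subunit of ribonucleotide reductase, fell most among the replication members and was called only after day 12. Its means were 121 ± 12.3, 119 ± 8.79 and 36.4 ± 9.93 (SD, n = 5) at days 6, 12 and 19 in 3K and 121 ± 17.9, 130.3 ± 16.1 and 49.0 ± 12.0 in EV. Rrm2 changed by -1.72 in 3K and -1.42 in EV at day 19 against day 12 (limma adjusted p = 6.4e-11 and 4.0e-09). The other helicase subunits Mcm2, Mcm3, Mcm4, Mcm5 and Mcm7 and the clamp Pcna changed by -0.31 to -1.21 in 3K and by -0.39 to -1.04 in EV between days 6 and 19. Some calls of Mcm2 and Mcm4 for single steps were lost when 1 library was left out. Mcm2 at day 12 against day 6 in EV (-0.23) was lost without library 1 of either day, Mcm2 at day 19 against day 12 in 3K (-0.26) without 3K day 12 library 2, and Mcm4 at day 19 against day 12 in 3K (-0.24) without library 3 of either day (adjusted p from 0.055 to 0.069).

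No replication gene was called between treatments. At day 19 the differences ranged from -0.42 for Rrm2 (95% interval -0.74 to -0.11, limma adjusted p = 0.086) to 0.03 for Mcm4. Of 31 further replication and nucleotide synthesis genes tested, 29 were lower and 1 higher at day 19 than at day 6 in 3K. In EV, 28 were lower and 1 higher. Shares of all genes called lower and higher were 31.3% and 32.2% in 3K, and 32.2% and 32.9% in EV. Of the 31, the 3 with the smallest adjusted p in EV were Prim1, Rfc3 and Rrm1, at -1.10, -1.40 and -0.67. Between treatments 1 of the 31 was called at day 19, where 4.08% of all genes were called lower in 3K and 3.78% higher. This was Tk1, thymidine kinase, which was lower in 3K at 62.6 to 94.6 against 92.2 to 135 in EV (-0.51, limma adjusted p = 0.0027). It overlapped by 2 3K libraries and 1 EV library.

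The genes of G2 and mitosis all fell after day 12, and none was called lower before. Bub1 in 3K was not called lower at day 12, though its libraries (38.0 to 56.3) lay below all those of day 6 (57.2 to 90.8). All 11 were lower at day 19 than at day 12 in each treatment, with a median of -1.42 in 3K and -1.18 in EV. Of all genes, 22.5% were called lower in 3K and 21.7% in EV. Every day 19 library lay below every day 12 library in 10 of 11 genes in 3K and in 11 of 11 in EV, against 15.1% and 15.0% of all genes. Ccnb1, cyclin B1, in 3K was 153, 148, 174, 162 and 157 at day 6, 155, 185, 167, 161 and 168 at day 12, and 77.5, 71.1, 90.4, 69.8 and 67.3 at day 19. EV cultures had 158, 163, 144, 146 and 156 at day 6, 179, 176, 155, 158 and 169 at day 12, and 91.5, 74.5, 73.7, 59.6 and 89.9 at day 19. Days 6 and 12 overlapped and day 19 lay below both. The change at day 19 against day 12 was -1.15 ± 0.09 in 3K and -1.11 ± 0.09 in EV (limma adjusted p = 9.2e-12 and 2.0e-11).

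Birc5, survivin of the chromosomal passenger complex, also fell after day 12. Birc5 in 3K was 57.8, 52.4, 54.1, 67.7 and 62.0 at day 6, 51.6, 64.4, 52.2, 72.3 and 48.7 at day 12, and 20.8, 14.6, 22.0, 19.6 and 23.8 at day 19. In EV it was 57.4, 57.5, 41.0, 58.7 and 59.5 at day 6, 73.7, 61.7, 62.9, 67.1 and 69.4 at day 12, and 22.6, 20.0, 27.1, 23.1 and 34.1 at day 19. All day 19 libraries lay below all earlier ones. The step at day 19 against day 12 was -1.48 ± 0.15 in 3K and -1.39 ± 0.15 in EV (limma adjusted p = 7.9e-10 and 3.0e-09).

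The proliferation marker Mki67 and the kinetochore gene Cenpf rose before they fell, in steps that share the day 12 libraries. Mki67 averaged 17.7 ± 6.91, 39.0 ± 7.47 and 12.7 ± 5.65 (SD, n = 5) at days 6, 12 and 19 in 3K and 15.6 ± 7.19, 38.3 ± 7.06 and 15.6 ± 4.39 in EV. Its step at day 12 against day 6 was 1.15 ± 0.32 in 3K and 1.39 ± 0.32 in EV (limma adjusted p = 0.0041 and 0.00064). Cenpf rose by 0.73 in 3K and 0.88 in EV (adjusted p = 0.0070 and 0.0013). Prc1, which bundles the central spindle, was called higher at day 12 in 3K (0.39, adjusted p = 0.0070) and differed by 0.22 in EV (adjusted p = 0.13). The other 8 genes of the group were not called in this step in either treatment, and the oligodendrocyte lineage markers summed to more at day 12 (9780 to 10923 in 3K and 8760 to 10652 in EV) than at day 6 (6111 to 6635 and 6304 to 6855) or day 19 (5953 to 7209 and 6191 to 7179). The part of these cells in the course of Mki67 and Cenpf was not tested.

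Mki67 at day 19 was not called against day 6, with changes of -0.47 in 3K and 0.12 in EV (limma adjusted p = 0.20 and 0.76). Cenpf fell by 0.69 on the log2 scale in 3K (adjusted p = 0.0062) and changed by -0.25 in EV (adjusted p = 0.33), and the difference between these changes was -0.45 (adjusted p = 0.59). Top2a, topoisomerase of chromosome condensation, had the largest step at day 19 against day 12 in the group, -1.81 in 3K and -1.61 in EV (adjusted p = 1.8e-08 and 1.6e-07). Ccna2, cyclin A2, averaged 179 ± 18.3, 180 ± 15.3 and 60.5 ± 21.4 (SD, n = 5) at days 6, 12 and 19 in 3K and 186 ± 17.9, 169 ± 9.0 and 70.5 ± 9.90 in EV. The steps of Aurkb, a mitotic kinase, Bub1, a checkpoint kinase, and Nusap1, a spindle protein, at day 19 against day 12 ranged from -0.81 to -1.50 in 3K and from -0.95 to -1.38 in EV, all called. Of 39 further mitosis genes tested, 36 were lower and 1 higher at day 19 than at day 12 in 3K. In EV, 35 were lower and none higher. Shares of all genes called lower and higher were 22.5% and 23.3% in 3K, and 21.7% and 23.6% in EV. The medians of the 39 genes were -1.18 in 3K and -0.86 in EV. Cit, citron kinase, which is also known from postmitotic neurons, was higher at day 19 than at day 6 by 1.78 in 3K and 1.67 in EV (adjusted p = 3.6e-11 and 1.4e-10), while Bub1b, Mybl2 and Spc25 in that list were lower.

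**Figure D5:**
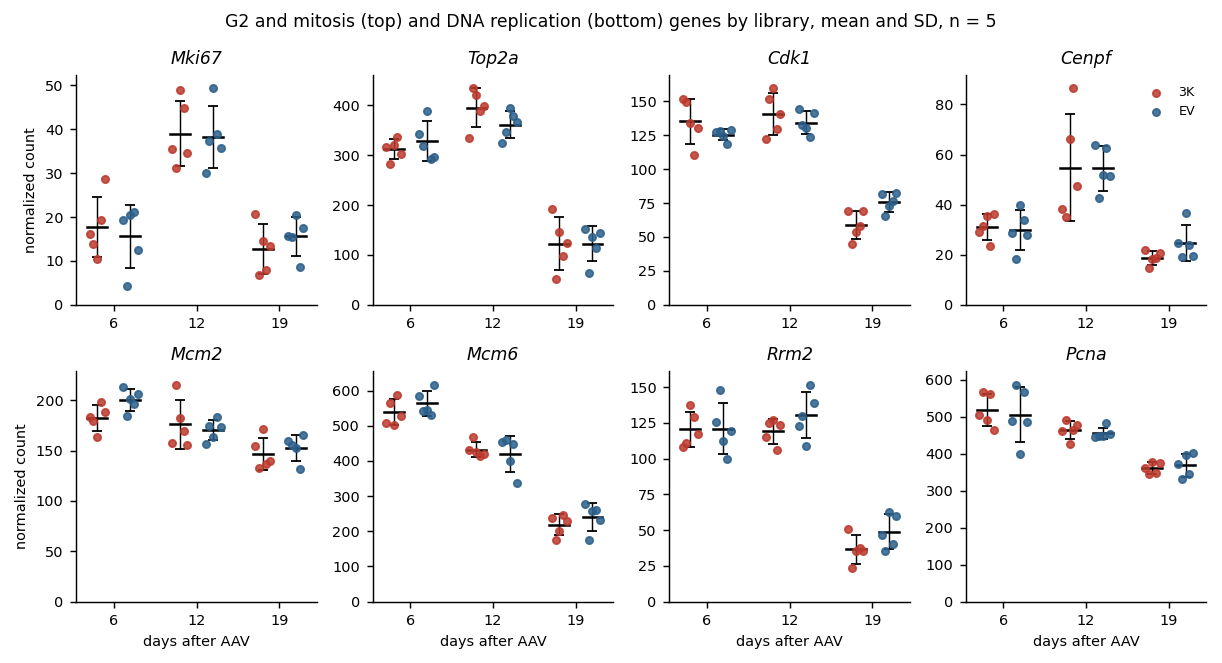
Normalized counts by library against days after AAV for 4 genes of G2 and mitosis (top) and 4 of DNA replication (bottom), with 3K (red) left of EV (blue). Bars give the mean and SD of 5 libraries. Mki67 and Cenpf are highest at day 12, Mcm6 is lower at each later day, and Cdk1 at day 19 averages 58.9 in 3K against 75.8 in EV.

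Cdk1, the kinase of mitotic entry, was the only member called lower in 3K. At day 19 Cdk1 was 69.0, 44.6, 53.8, 58.0 and 69.4 in 3K, against 81.7, 65.4, 72.6, 76.9 and 82.7 in EV. The 2 highest 3K libraries lay above the lowest EV library, number 2. The difference was -0.37 ± 0.10 (limma adjusted p = 0.023), a fold of 0.773. The call was lost without EV library 1 or 5 or 3K library 2 or 3 (-0.28 to -0.34, adjusted p from 0.055 to 0.093). DESeq2 gave an adjusted p of 0.064, and limma with only the groups compared gave 0.14. Earlier in the course Cdk1 in 3K was 152, 149, 134, 111 and 131 at day 6 and 122, 152, 159.7, 129 and 141 at day 12, and in EV it was 127, 128, 124, 119 and 129 at day 6 and 145, 132, 130.2, 123 and 141 at day 12, so the treatments overlapped widely. The 3K effect at day 19 against day 12 was -0.43 (adjusted p = 0.24).

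The other 10 genes of the group were not called between treatments at day 19. Their differences lay between -0.36 for Cenpf and 0.21 for Aurkb, and the 95% intervals of the 11 genes reached from -0.98 to 0.65. The median over the 11 was -0.26, against -0.00 over all genes. Birc5 had an unadjusted p under 0.05 (-0.31, adjusted p = 0.22). Of the 39 further mitosis genes 1 was lower in 3K, the checkpoint kinase Bub1b (-0.63, adjusted p = 0.025), and none was higher. Among all genes, 4.08% were called lower in 3K at day 19 and 3.78% higher.

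At day 19 the libraries numbered 2 were low in these genes in both treatments. The 11 genes summed to 764, 386, 732, 579 and 615 in 3K, against 769, 509, 755, 617 and 736 in EV. Library 2 was the lowest of its group in 10 of 11 genes in 3K and in 8 of 11 in EV, and of the 9 replication genes in 7 in 3K and in 6 in EV. These libraries had the most reads of their groups, 7035869 in 3K and 6797722 in EV, and the lowest summed oligodendrocyte lineage markers, 5953 in 3K and 6191 in EV. Their summed astrocyte markers, 56716 in 3K and 57482 in EV, lay within the range of the other libraries in each treatment, and their summed neuron markers, 35762 in 3K and 38268 in EV, were the highest of their groups. The part of these markers in the low values was not tested. With both libraries left out, all 11 genes kept their calls at day 19 against day 12 in both treatments, and the difference of Cdk1 between treatments was -0.33 (limma adjusted p = 0.058).

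Markers of other cells at day 19 are set beside the treatment differences. In 3K, 5 of 12 astrocyte markers tested were lower, led by Aldoc (-0.52). Lower as well were 3 of 14 neuron markers (Slc17a7, Snap25 and Nefl, -0.11 to -0.20), and 1 of 12 oligodendrocyte lineage markers, Cnp, was higher (0.35). Among all genes, 4.08% were called lower and 3.78% higher. The summed neuron markers ranged from 33578 to 35762 in 3K and from 36444 to 38268 in EV, with no overlap, and the mitochondrial share of reads from 4.50 to 5.14% in 3K and from 3.94 to 4.55% in EV. With that share as a covariate, Id1, Id3, Nes and Cdk1 kept their calls at day 19 (limma adjusted p = 0.00024, 0.0013, 0.013 and 0.0079), and Id2 did not (adjusted p = 0.14). The part of other cell types in these differences was not tested.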

How the data were processed

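RNA from rat cortical cultures was amplified with SMART-Seq v4 and sequenced as Nextera XT libraries. Per the submitters' processing notes and the study's methods, the authors aligned reads with STAR 2.5.2b to Rnor 6.0 with the vector sequence added, counted them with RSEM 1.2.31, and normalized the counts with DESeq2. The deposited values are a signal of this kind, read counts per gene divided by one size factor per library (0.8009 to 1.1843). Multiplied back, 100.0% of values were whole reads within 0.01. Whether counting used strand is not given in the sources used here, so reads of overlapping genes cannot be told apart.

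The filter kept 12911 genes, those that reached 10 normalized counts in 5 libraries or more. log2(normalized count + 1) was fitted with limma 3.58.1 in R 4.3.3, with an intensity trend and 6 group means, and p-values were adjusted by Benjamini and Hochberg over all genes tested. The fit was tested on simulated data. Alternatives were pseudocounts of 0.5 and 5, no filter, a filter of 50, equal totals, equal upper quartiles, only the groups compared, a replicate block, edgeR 4.0.16, DESeq2 1.42.0 and leaving out each library. The mitochondrial share as a covariate and leaving out both day 19 libraries numbered 2 were added after seeing the data. All 35 members are named. Values by library are given for members called between treatments, and for up to 2 per role with the smallest adjusted p at day 19 against day 6 in EV. Up to 3 called genes are named from each other list, and Cit, Prom1, Id4, Lyz2, Csf1r, Cldn5, Cx3cr1 and C1qa were named after their values were seen. Of 274 genes in these lists 264 were matched by symbol and 10 were not. Members and lists were chosen with earlier results of these data known.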

Additional observations from a re-analysis of the deposited data

Results flagged for a closer look

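In 8 of 198 groups of 5 libraries (4.04%), a single library stood apart from the other 4 of its gene, treatment and day by a gap of over 0.71 of the whole range of that group. Chance marks about 1 in 20 groups in this way. In EV at day 12, Hes1 was 115.873 in library 4 (89.6 to 95.4 in the others), Id3 was 462.332 in library 5 (266 to 318), Pcna was 481.903 in library 4 (444 to 454), Mcm5 was 166.174 in library 3 (123 to 136) and Tyms was 121.738 in library 2 (99.2 to 106). In 3K at day 6, library 2 was high for Id3 (173.79, against 109.6 to 121 in the others) and for Bub1 (90.825, against 57.2 to 64.5). In EV at day 6, Birc5 was low in library 3 (41.027, against 57.4 to 59.5).

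The 3K effect differed between days by an interaction test in 2 members. For Id1 it was larger at day 19 than at day 12 by 1.05604 on the log2 scale (limma adjusted p = 0.044), and for Id3 it was larger at day 19 than at day 6 by 1.50711 (adjusted p = 0.024). The libraries whose removal ended these calls are given with the Id genes above.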

How the results depend on the processing

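None of the 159 single-member results called in the main fit reversed its direction under any alternative. Results not called were not checked for this, and counts were compared by size only. Of the recomputed counts of members called, 245 stayed within 1.5 times the value reported and 44 did not. In 3K against EV at day 6, the count of 1 became 0 without a filter, with equal upper quartiles, with only the groups compared, with the mitochondrial share as a covariate and with the replicate block. At day 19 the count of 5 became 3 with only the groups compared and with DESeq2, and 2 without both libraries numbered 2. For the 3K effect at day 19 against day 12, 1 became 0 without a filter, with only the groups compared, with the mitochondrial share and without both libraries numbered 2, and at day 19 against day 6, 1 became 0 with only the groups compared. The cause was not tested. With 1 library left out, counts ranged from 0 to 1, 0 to 0 and 3 to 6 for 3K against EV at days 6, 12 and 19, from 0 to 0 for the effect at day 12 against day 6, from 0 to 1 for that at day 19 against day 12 and from 0 to 2 for that at day 19 against day 6. Between days they ranged from 15 to 17, 28 to 30 and 30 to 30 in 3K (day 12 against 6, 19 against 12, 19 against 6), and from 15 to 18, 26 to 27 and 29 to 30 in EV. The replicate block gave 5 at day 19 and 1 for each effect at day 19. Deviations of same-numbered libraries correlated over 0.1 in 3 of 45 pairs (-0.121 to 0.192). These were 3 of the 5 pairs of 3K and EV at day 19, numbers 2, 4 and 5 (0.145, 0.161 and 0.192). Libraries correlated best with their own number in 9 of 45 pairs, these 3 among them. The main tests took the libraries as unpaired, and the replicate block fitted 1 effect per number over all days. Structure shared by number at day 19 alone was not tested.

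Over all genes, 29, 56 and 1015 were called in 3K against EV at days 6, 12 and 19. With only the groups compared these were 14, 106 and 739, with DESeq2 56, 95 and 1102, with edgeR 31, 59 and 1070, and without both libraries numbered 2 the last was 663. The effects at day 19 (70 against day 12, 195 against day 6) became 61 and 104 with only the groups compared, 108 and 281 with DESeq2, 29 and 143 without a filter, and 46 and 138 without both libraries. Rescaling moved the median of all genes by at most 0.052 in size. Depth limits Mki67, Pax6, Eomes and Neurog2, which had few reads. It also limits Id1 and Id3 in EV at day 19, with 11 to 27 and 11 to 34 reads per library.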

Other observations

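Lyz2, listed with the microglial markers, was the only gene of that list to pass the filter. It was 136, 179, 139, 137 and 147 normalized counts in 3K at day 19, against 102, 154, 133, 120 and 138 in EV, and overlapped between treatments. At day 6 it was 0 to 6.32 in 3K and 0 to 5.23 in EV, and at day 12 it was 28.5 to 42.4 in 3K and 28.7 to 42.5 in EV. The log2 change at day 19 against day 6 was 5.47 in 3K and 5.46 in EV (limma adjusted p = 3.5e-14 and 3.2e-14), while C1qa was at 0 in every library and Cx3cr1 and Csf1r did not exceed 1.08 and 1.04. The source of Lyz2 was not tested.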
